A study of Mus musculus with 3 samples.

Results

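The comparison set mouse cells on day 6 of reprogramming against the same kind of cells on day 0, the start of factor induction. It took the time course libraries of those 2 days, 3 per day and numbered 1 to 3, which are 6 of 129 libraries in the count table. The starting cells were wild-type BL6 mouse embryonic fibroblasts (MEFs), primary connective-tissue cells, at passage 2. All 6 libraries came from cells given 2 lentiviruses at a multiplicity of infection of 1. The first, tet-STEMCCA, carried Oct4, Sox2, Klf4 and c-Myc as a single cassette under a doxycycline-dependent promoter, and the other carried rtTA, the doxycycline-dependent activator. The reprogramming medium held 2 µg/mL doxycycline, 3 µM Chiron (a GSK3 inhibitor), 0.25 µM of an Alk5 inhibitor (which blocks the TGF-β receptor), 50 µg/mL ascorbic acid and LIF. The time course cells received no siRNA. Factor induction, the medium with its serum, ascorbic acid, LIF and inhibitors, and time in culture all differ between the 2 days and cannot be told apart here. The paper also describes a move at day 0 onto gelatin or feeder cells, and does not say which was used here. Reprogramming is known to run at different speeds in different cells, so each level is a mean over a mixture, and a smaller share of expressing cells cannot be told apart from less RNA per cell. The labels give the replicate number only as a sequenced pool, so the spread between libraries may in part be technical. The p-values rest on a spread estimated over 127 libraries of the series, siRNA and control ones included, not on these 6 alone.

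In the early phase of reprogramming, fibroblasts are known to lose their mesenchymal program, that is, the collagens, matrix proteins and contractile filaments of a spread, adherent cell, and to take on epithelial features. Growth-related genes respond to c-Myc, which drives ribosome production, and the pluripotency network itself is switched on late and in few cells. Across the time course, gene lists for these programs were therefore read together with lists for metabolism, protein handling and signalling.

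RNA was counted with CEL-Seq2, which reads the 3′ end of each transcript and counts unique molecular identifiers (UMIs). Library totals were 47210 to 130101 counts on day 0 and 54084 to 144802 counts on day 6, with replicate 3 the deepest on both days, and 7699 to 11269 genes had a count. Levels are given in CPM, the count relative to the library total after TMM scaling, in the order of replicates 1, 2 and 3, and changes as the log2 fold change of day 6 over day 0 with its standard error. The adjusted p is that of edgeR's quasi-likelihood test with Benjamini-Hochberg adjustment over all 3013 genes tested, with n = 3 libraries per day. Its spread was estimated over 127 libraries. When only the 6 libraries of the 2 days were fitted, 497 of 1098 tested genes were called, and 430 of the main calls were shared. Between days, 668 genes were called at an adjusted p under 0.05, or 22.2% of those tested. Of the tested genes, 10.7% were called higher and 11.5% lower on day 6, and the median log2 fold change over all tested genes was 0.05. The list counts below are to be read against these shares. With RLE in place of TMM scaling the same median moved by -0.16, and the split of calls went from 321 higher and 347 lower to 229 higher and 431 lower. Without replicate 3, the calls numbered 343, and without the replicate block 486, of which 210 were higher. Of the called genes, 644 moved the same way in each of the 3 replicates and 587 had no overlap between the levels of the 2 days. A call favours both traits, and their shares over all tested genes were not counted.

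**Figure D1:**
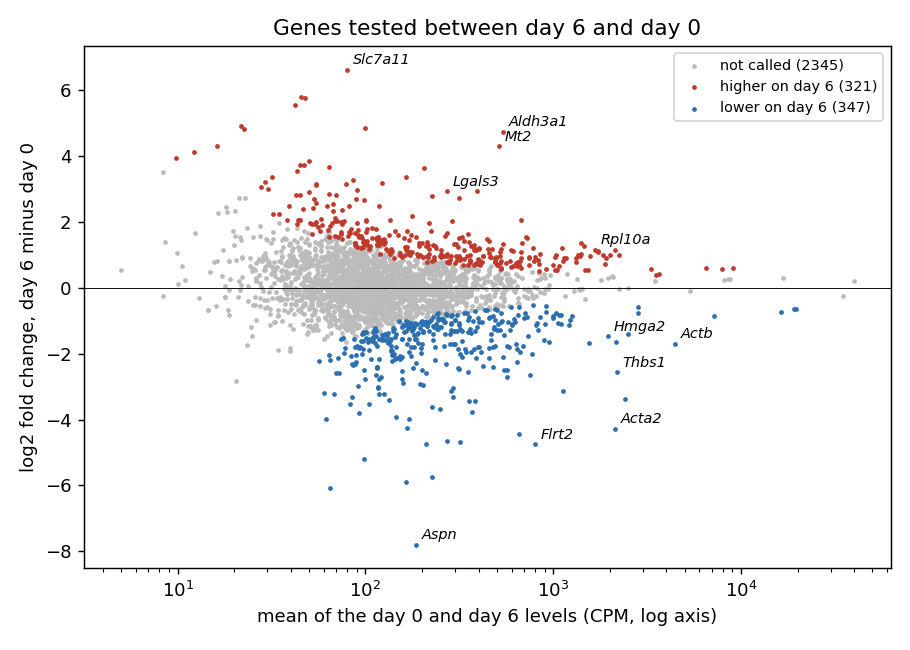
Each point is 1 of the 3013 genes tested, with the mean of its day 0 and day 6 levels in CPM on a log axis and its log2 fold change on the vertical axis. Red points are the 321 genes called higher on day 6 and blue points the 347 called lower; Acta2 and Actb lie among the genes of high level that were lower.

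The day 0 cells carried the markers of fibroblasts. All 14 fibroblast markers had counts on both days, with summed levels of 7164, 8829.7 and 8624 CPM on day 0 and 4095, 3145 and 3293 CPM on day 6. Of the 11 markers tested, 7 were lower and 2 higher on day 6. Markers of other cell types were low, but not all at 0. The 10 epithelial markers together gave 2, 3 and 3 counts on day 0 and 7, 15 and 36 counts on day 6, the 9 endothelial markers 1, 0 and 1 counts on day 0 and 2, 1 and 6 counts on day 6, and Pecam1 and Cdh5 had no count on either day. Among the 9 macrophage markers Ptprc had 0 counts on day 0 and 1 on day 6, and Lyz2, a lysozyme gene, made up 31 of 35 counts on day 0 and 10 of 11 on day 6. It was called lower (log2 fold change -1.87 ± 0.69 SE, adjusted p = 0.035). A call did not hold for Lyz2 (adjusted p = 0.2) without replicate 2, for Lyz2 without replicate 3, where the count filter removed it, for Lyz2 (adjusted p = 0.079) without the replicate block, for Lyz2 (adjusted p = 0.17) in DESeq2, for Lyz2 (adjusted p = 0.14) with no count filter and for Lyz2 (adjusted p = 0.058) in limma. The 9 skeletal muscle markers summed to 18 counts on day 0 and 8 on day 6, with Myod1 and Myog at 0. The 8 cartilage and bone markers had 7 and 1 counts, with Col2a1 at 0, and the 7 erythroid markers 0 and 1. The 7 adipocyte markers had 15 and 46 counts, with Pparg and Adipoq at 0, and nearly all came from Lpl, lipoprotein lipase, which was called higher (log2 fold change 1.45 ± 0.48 SE, adjusted p = 0.016). Significance was lost for Lpl (adjusted p = 0.35) without replicate 3, for Lpl (adjusted p = 0.055) in DESeq2 and for Lpl (adjusted p = 0.12) in limma. The 7 keratinocyte markers had 3 and 19 counts, with Krt5 at 0 and Krtdap, which had no count on day 0, called higher (at least 1.88-fold with a floor of 3 counts, adjusted p = 0.047). The call was lost for Krtdap (adjusted p = 0.092) without replicate 2, for Krtdap without replicate 3, where the count filter removed it, for Krtdap (adjusted p = 0.079) without the replicate block, for Krtdap (adjusted p = 0.06) with RLE size factors, for Krtdap (adjusted p = 0.13) in DESeq2, for Krtdap (adjusted p = 0.1) with no count filter and for Krtdap (adjusted p = 0.22) in limma. The 9 neural markers gave 287, 339 and 215 CPM on day 0 and 430.3, 253 and 273 CPM on day 6, and 1 of 3 tested was called higher. The 7 primitive endoderm markers gave 103, 191 and 124 CPM on day 0 and 44.5, 90.4 and 54.5 CPM on day 6, mostly from Dab2 and Pdgfra. The part of such cells in the results below was not tested.

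The contractile genes that fibroblasts share with smooth muscle fell together. All 17 tested members of the 22-gene list were called lower and none higher, with a median log2 fold change of -2.70, the lowest median of the lists with 10 or more tested members. Their summed level, over all 22 genes, was 15189, 15246 and 17314 CPM on day 0 and 3042, 2097 and 2120.1 CPM on day 6, so the lowest day 0 library stood far above the highest day 6 library. Acta2, which encodes smooth muscle α-actin (chr19:34241090-34255590, GRCm38), had levels of 3284, 3938 and 4916 CPM on day 0 and 401, 108 and 150.0 CPM on day 6 (log2 fold change -4.28 ± 0.24 SE, adjusted p = 6.3e-42). No day 6 library came near the lowest day 0 library. Tagln, an actin-bundling protein also called SM22α, went from 452, 169 and 348 CPM to 0, 18.1 and 0 CPM (log2 fold change -5.90 ± 0.82 SE, adjusted p = 5.5e-10); in 2 of the day 6 libraries it had no count. Actg2, the enteric smooth muscle γ-actin, had 144, 169 and 207 CPM on day 0 and 0, 18.1 and 13.6 CPM on day 6 (log2 fold change -3.81 ± 0.78 SE, adjusted p = 3.9e-05). Myl9, a regulatory myosin light chain, had 411, 466 and 521 CPM on day 0 and 44.5, 0 and 47.7 CPM on day 6 (log2 fold change -3.69 ± 0.51 SE, adjusted p = 2.7e-10). Without replicate 1, 2 or 3 in turn, 19, 18 and 14 members were lower, and in the last of these the count filter removed Actg2. Tgfb1i1, which encodes the focal adhesion protein Hic-5, stood outside the list and was among the 12 genes with the deepest fall under the naming rule (called, at 50 CPM or more on either day and lower in every replicate), at 103, 275 and 207 CPM on day 0 and 0, 0 and 6.82 CPM on day 6 (log2 fold change -5.20 ± 0.94 SE, adjusted p = 2e-06); it too was removed by the count filter without replicate 3.

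Serum response factor binds a motif known as the CArG box in the promoters of many contractile and cytoskeletal genes. On both strands of the RefSeq promoters (GRCm38.p6, 250 bases before to 50 after the gene start), a CArG box was found for 3 of 19 contractile genes with a promoter in the table and for 4 of 28 actin and adhesion genes, where 1.81% of all genes with a promoter held one. Of these 7 genes, Cnn2, Myl9, Vcl, Actg1 and Fhl2 were called lower, and Lima1 and Fhl1 were tested and not called. Over the lists, all 17 tested contractile genes and 13 of 24 tested actin and adhesion genes were lower. The calls of the motif holders were thus near those of the lists as a whole. The lists hold genes of the kind this motif is known from, so a raised share can be part of their choice. The promoters of Myl9 (chr2:156775214-156775513, plus strand) and of Vcl (chr14:20929148-20929447, plus strand), which encodes the adhesion protein vinculin (log2 fold change -2.70 ± 0.59), are shown because they hold the motif and their genes fell. Vcl was chosen after its values were seen, and capitals mark the match.
Myl9: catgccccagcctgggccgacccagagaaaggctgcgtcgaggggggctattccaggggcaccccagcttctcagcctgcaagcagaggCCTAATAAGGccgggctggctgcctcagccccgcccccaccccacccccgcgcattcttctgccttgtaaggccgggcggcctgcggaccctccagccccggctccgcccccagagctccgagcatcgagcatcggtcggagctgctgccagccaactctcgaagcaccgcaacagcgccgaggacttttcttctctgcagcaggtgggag
Vcl: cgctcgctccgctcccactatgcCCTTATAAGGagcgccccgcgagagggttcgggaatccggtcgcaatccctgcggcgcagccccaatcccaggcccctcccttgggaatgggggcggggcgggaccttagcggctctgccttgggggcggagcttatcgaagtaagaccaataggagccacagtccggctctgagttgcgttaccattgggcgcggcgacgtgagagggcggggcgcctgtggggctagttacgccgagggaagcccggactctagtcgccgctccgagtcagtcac

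The wider actin cytoskeleton and adhesion list was lower in part. Of its 24 tested genes, 13 were lower, 0 higher and the other 11 not called, with a median log2 fold change of -0.83, and its summed level was 17159.9, 19777 and 20335 CPM on day 0 and 8947, 8386 and 8119 CPM on day 6. Actb, the β-actin gene often used as a constant reference, had levels of 6384, 7072 and 6969 CPM on day 0 and 2181, 2223 and 1970.1 CPM on day 6 (log2 fold change -1.69 ± 0.16 SE, adjusted p = 8.5e-19). Actg1, cytoplasmic γ-actin, had 3038, 3917 and 3873 CPM on day 0 and 1409.5, 1356 and 1336 CPM on day 6 (log2 fold change -1.41 ± 0.17 SE, adjusted p = 3.8e-12). Both actins were lower in every day 6 library than in any day 0 library. Fhl2, a LIM-domain adaptor of the actin cytoskeleton, had 164, 212 and 289.7 CPM on day 0 and 44.5, 36.1 and 6.82 CPM on day 6 (log2 fold change -3.24 ± 0.68 SE, adjusted p = 6e-05). Rhoc, a small GTPase, had 369, 423 and 157 CPM on day 0 and 104, 54.2 and 75 CPM on day 6 (log2 fold change -1.81 ± 0.42 SE, adjusted p = 0.00036). A call did not hold for Fhl2 (adjusted p = 0.075) without replicate 3. Vim, the intermediate filament protein of mesenchymal cells, fell less, from 1601, 1842 and 1573 to 979, 560.3 and 736 CPM (log2 fold change -1.12 ± 0.18 SE, adjusted p = 7.9e-08). Of the 7 tubulin genes tested only Tuba1a was called, at 801, 741 and 952 CPM on day 0 and 282, 361 and 389 CPM on day 6 (log2 fold change -1.28 ± 0.23 SE, adjusted p = 2.3e-06); with RLE scaling 2 were called lower. In the list of annexins, S100 proteins, galectins and their binding proteins, 2 of 13 tested genes were higher and 6 lower (median -0.25), or 1 and 4 without replicate 3 and 1 and 3 in limma. Lgals3, which encodes galectin-3, rose from 103, 42.3 and 49.7 to 519, 488 and 436 CPM (log2 fold change 2.93 ± 0.37 SE, adjusted p = 7e-12), while Lgals3bp, a glycoprotein that binds galectins and is not one itself, fell from 164, 339 and 132 to 44.5, 18.1 and 6.82 CPM (log2 fold change -3.21 ± 0.67 SE, adjusted p = 4.8e-05).

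Genes of the extracellular matrix were lower on day 6 in 3 of the 6 matrix lists, and mixed or mostly not called in the others. Among 8 tested collagens of the fibrils and their partners, 5 were lower and 1 higher (median -1.44), and among 11 matricellular and elastic fibre genes 9 were lower and 1 higher (median -1.66). Of the 5 tested enzymes and chaperones that mature collagen, 4 were lower (median -1.45). Of 7 matrix proteases and inhibitors, 2 were lower and 5 not called (median -0.12), with 1 lower without replicate 3 and without the replicate block. Of 3 basement membrane genes 1 was lower and 1 higher (median -0.03), and of 4 small leucine-rich proteoglycans 2 were lower and 2 higher (median 0.24). The matricellular and elastic fibre gene called higher was Fbn2, which encodes fibrillin-2, with 20.5, 63.5 and 49.7 CPM on day 0 and 134, 163 and 184 CPM on day 6 (log2 fold change 1.80 ± 0.54 SE, adjusted p = 0.0078). Significance was lost for Fbn2 (adjusted p = 0.18) without replicate 3. The summed matricellular and elastic fibre level was 11823, 11328 and 11479 CPM on day 0 and 3472, 3506 and 3381 CPM on day 6. Col1a1 and Col1a2, the chains of type I collagen, had 821, 1927 and 1233 CPM on day 0 and 489.6, 524 and 361 CPM on day 6 (log2 fold change -1.58 ± 0.23 SE, adjusted p = 1.4e-09) and 2135, 2583 and 2350.5 CPM on day 0 and 875, 687 and 682 CPM on day 6 (log2 fold change -1.67 ± 0.19 SE, adjusted p = 1.3e-13). Col5a2, a chain of the type V collagen that nucleates fibrils, had 226, 508 and 339 CPM on day 0 and 14.8, 90.4 and 40.9 CPM on day 6 (log2 fold change -2.95 ± 0.52 SE, adjusted p = 1.2e-06). Thbs1, the matricellular protein thrombospondin 1, had 3818, 3917 and 3377 CPM on day 0 and 757, 669 and 498 CPM on day 6 (log2 fold change -2.57 ± 0.20 SE, adjusted p = 4.1e-27). Each of Col1a1, Col1a2, Col5a2 and Thbs1 was lower in every day 6 library than in any day 0 library.

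Postn, which encodes periostin, a matrix protein of activated fibroblasts, fell from 493, 593 and 488 to 29.7, 18.1 and 13.6 CPM (log2 fold change -4.67 ± 0.62 SE, adjusted p = 6.5e-11). Fn1, fibronectin, fell from 164, 318 and 348 to 29.7, 54.2 and 34.1 CPM (log2 fold change -2.89 ± 0.52 SE, adjusted p = 2e-06). Lox, the lysyl oxidase that crosslinks collagen and elastin, had 1108, 1525 and 1092 CPM on day 0 and 89, 90.4 and 20.5 CPM on day 6 (log2 fold change -4.45 ± 0.43 SE, adjusted p = 1.4e-18). Serpinh1, the collagen chaperone HSP47, had 431, 318 and 472 CPM on day 0 and 223, 108 and 143 CPM on day 6 (log2 fold change -1.41 ± 0.31 SE, adjusted p = 0.00013). In the basement membrane list, Col4a1, a type IV collagen chain, had 842, 487 and 795 CPM on day 0 and 134, 145 and 136 CPM on day 6 (log2 fold change -2.37 ± 0.31 SE, adjusted p = 2.4e-11). Timp3, a matrix-bound inhibitor of metalloproteinases, had 842, 783 and 1167 CPM on day 0 and 208, 127 and 170.4 CPM on day 6 (log2 fold change -2.49 ± 0.28 SE, adjusted p = 1.8e-14). Timp1 and Mmp2 of the same list were tested and not called (0.13 ± 0.32 and -0.12 ± 0.55). None of the 6 calls was lost when any 1 replicate was left out. The call was lost for Serpinh1 (adjusted p = 0.055) in limma. Col6a1, a chain of type VI collagen, and Lama4, a laminin chain, went the other way, with log2 fold changes of 1.58 ± 0.58 and 1.97 ± 0.76 and adjusted p of 0.032 and 0.045. A call did not hold for Col6a1 (adjusted p = 0.053) and Lama4 (adjusted p = 0.32) without replicate 1, for Col6a1 (adjusted p = 0.063) and Lama4 (adjusted p = 0.063) without replicate 2, for Col6a1 and Lama4 without replicate 3, where the count filter removed them, for Col6a1 (adjusted p = 0.062) and Lama4 (adjusted p = 0.072) with RLE size factors, for Col6a1 (adjusted p = 0.09) and Lama4 (adjusted p = 0.1) in DESeq2, for Col6a1 (adjusted p = 0.054) and Lama4 (adjusted p = 0.075) with no count filter and for Col6a1 (adjusted p = 0.084) and Lama4 (adjusted p = 0.095) in limma. 

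The small leucine-rich proteoglycans, which coat collagen fibrils, split in 2 directions. Aspn, which encodes asporin, had levels of 493, 191 and 430.4 CPM on day 0 and no count in any day 6 library, so against a floor of 3 counts over the day 6 libraries it was at least 35.2-fold lower. Its adjusted p was 1.1e-10 in edgeR and 0.39 in DESeq2, where the call was lost. Bgn, biglycan, had 821, 974 and 1126 CPM on day 0 and 148, 199 and 129.5 CPM on day 6 (log2 fold change -2.71 ± 0.27 SE, adjusted p = 2.4e-17). Dcn, decorin, instead rose from 0, 42.3 and 24.8 to 193, 253 and 218 CPM (log2 fold change 3.18 ± 0.54 SE, adjusted p = 4.4e-07). Lum, lumican, rose from 0, 0 and 16.6 to 119, 72.3 and 177 CPM (log2 fold change 3.67 ± 0.86 SE, adjusted p = 0.00039). The levels of the 2 days did not overlap for any of these 4 genes, and the calls of Bgn, Dcn and Lum were kept without any 1 replicate. Lum rested on 0, 0 and 2 counts on day 0 and 8, 4 and 26 counts on day 6. Dcn and Lum are also the 2 fibroblast markers called higher.

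**Figure D2:**
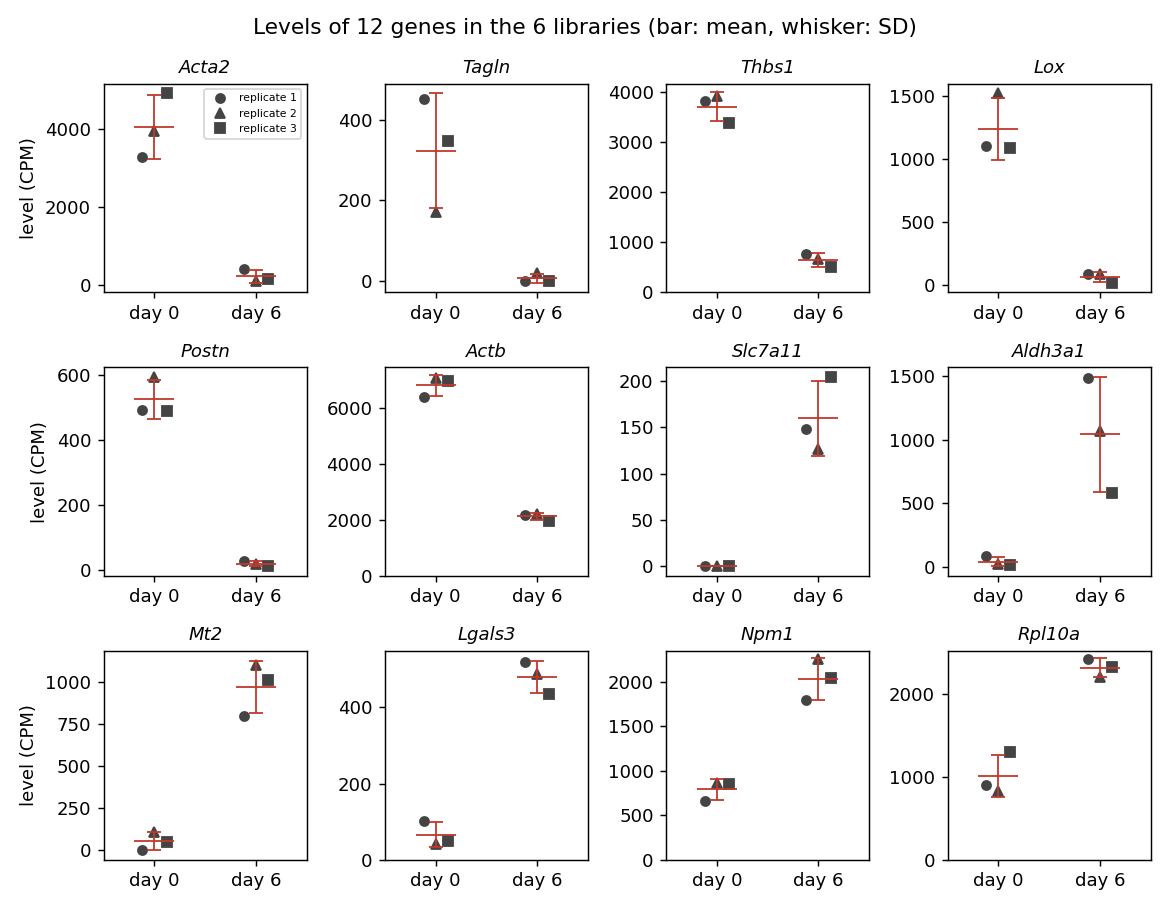
Levels in CPM of 12 genes in the 3 day 0 and the 3 day 6 libraries, with replicates 1, 2 and 3 as circle, triangle and square, the mean as a red bar and its SD as whiskers. The first 6 genes were lower in all day 6 libraries than in any day 0 library, and the last 6 were higher in all of them.

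Transcription factors and surface proteins of mesenchymal cells were lower in part. Of 9 mesenchymal transcription factors tested, 4 were lower and 1 higher (median -0.47). None was higher without replicate 3, in DESeq2 or in limma. Twist2 had 616, 254 and 588 CPM on day 0 and 104, 163 and 143 CPM on day 6 (log2 fold change -1.87 ± 0.31 SE, adjusted p = 2.5e-07), Prrx1 had 821, 719.9 and 679 CPM on day 0 and 326, 271 and 293 CPM on day 6 (log2 fold change -1.29 ± 0.24 SE, adjusted p = 6.4e-06), and its paralog Prrx2 had 267, 296 and 298 CPM on day 0 and 134, 72.3 and 75 CPM on day 6 (log2 fold change -1.67 ± 0.39 SE, adjusted p = 0.00032). Of 10 fibroblast surface genes tested, 5 were lower and 1 higher (median -0.86), with 3 lower without replicate 3 and none higher without replicate 1 or in limma. The receptor tyrosine kinase Axl had 657, 551 and 571 CPM on day 0 and 208, 127 and 150.0 CPM on day 6 (log2 fold change -1.86 ± 0.31 SE, adjusted p = 3.1e-07), and the integrin subunit Itgb1 had 801, 1101 and 745 CPM on day 0 and 252, 235 and 252 CPM on day 6 (log2 fold change -1.77 ± 0.24 SE, adjusted p = 1.4e-10). Cdh11, a mesenchymal cadherin, had 493, 508 and 406 CPM on day 0 and 178, 181 and 184 CPM on day 6 (log2 fold change -1.32 ± 0.31 SE, adjusted p = 0.00032). Thy1, a marker by which fibroblasts are sorted, had 328, 212 and 372 CPM on day 0 and 593, 271 and 266 CPM on day 6 and was not called (0.16 ± 0.27, adjusted p = 0.74).

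Most tested chemokine and cytokine genes were lower on day 6, and so were part of the TGF-β and BMP lists. Pmepa1, a TGF-β target that dampens the pathway, had 513, 296 and 455 CPM on day 0 and 29.7, 36.1 and 34.1 CPM on day 6 (log2 fold change -3.62 ± 0.55 SE, adjusted p = 1.1e-08); it was the only one of 4 tested TGF-β pathway genes called (median -0.31), and 21 were in the table. Without replicate 1, 4 of that list were lower, without replicate 2 2 and in limma 5. Of 7 tested BMP and Id genes, 3 were lower and none higher (median -0.92). Grem1, a secreted BMP antagonist, had 759, 868 and 1043 CPM on day 0 and 282, 271 and 252 CPM on day 6 (log2 fold change -1.79 ± 0.24 SE, adjusted p = 2.4e-10). Of 8 chemokine and cytokine genes tested, 7 were lower and none higher (median -2.31). The eighth, Mif, a cytokine first known for inhibiting macrophage migration, was not called (0.94 ± 0.41, adjusted p = 0.085), but was called higher in the fit of the 21 time course libraries and in limma. Ccl2, the monocyte chemoattractant MCP-1, had 308, 254 and 240.0 CPM on day 0 and 29.7, 36.1 and 0 CPM on day 6 (log2 fold change -3.94 ± 0.70 SE, adjusted p = 1.6e-06). Ccl7, its neighbour in the same chemokine cluster, had 616, 656 and 1589 CPM on day 0 and 341, 72.3 and 143 CPM on day 6 (log2 fold change -2.49 ± 0.27 SE, adjusted p = 2.5e-15). Cxcl12, a stromal chemokine, had 205, 212 and 174 CPM on day 0 and 0, 54.2 and 34.1 CPM on day 6 (log2 fold change -2.65 ± 0.64 SE, adjusted p = 0.00058). The levels of the 2 days did not overlap for any of the 3 chemokines.

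In the insulin-like growth factor and imprinted gene list, 7 of 14 tested genes were lower and none higher (median -1.10). Igfbp7 and Igfbp5, secreted IGF-binding proteins, had 452, 360.0 and 1059 CPM on day 0 and 0, 0 and 47.7 CPM on day 6 (log2 fold change -4.69 ± 0.54 SE, adjusted p = 9.3e-14) and 267, 254 and 414 CPM on day 0 and 44.5, 18.1 and 0 CPM on day 6 (log2 fold change -4.24 ± 0.69 SE, adjusted p = 1.3e-07). Meg3, a maternally expressed non-coding RNA of the imprinted Dlk1-Dio3 region, had 287, 402 and 281 CPM on day 0 and 14.8, 18.1 and 20.5 CPM on day 6 (log2 fold change -3.98 ± 0.62 SE, adjusted p = 3e-08). The paternally expressed Peg3 had 677, 551 and 745 CPM on day 0 and 134, 163 and 198 CPM on day 6 (log2 fold change -1.95 ± 0.30 SE, adjusted p = 3e-08), so both a maternally and a paternally expressed gene were lower. Igf2 was not called (-0.42 ± 0.29, adjusted p = 0.33). Of 8 immediate-early and stress genes tested, 4 were lower (median -1.41), among them Ier3 with 595, 487 and 712 CPM on day 0 and 148, 90.4 and 81.8 CPM on day 6 (log2 fold change -2.57 ± 0.38 SE, adjusted p = 5.3e-09). Klf6, a zinc-finger factor induced by growth factors, had 144, 572 and 215 CPM on day 0 and 14.8, 72.3 and 61.4 CPM on day 6 (log2 fold change -2.44 ± 0.48 SE, adjusted p = 1.4e-05).

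The fall of structural genes did not follow 1 time course. As a description over days 1 to 6, with no test, the summed collagen list went from 5155 CPM on day 0 to 1749 CPM on day 1 and stood at 1852 CPM on day 6, so that most of its difference was present after the first day. The contractile list instead declined from day to day, with means of 15916, 8431, 6013, 4592, 3354, 3273 and 2419 CPM on days 0 to 6. Acta2 had means of 4046, 2102, 895, 409.9, 259, 139.8 and 219.7 CPM on the same days. Aspn had means of 371, 0, 4.08 and 40.8 CPM on days 0 to 3. In the non-targeting siRNA controls of the screen, the contractile sum had a mean of 1512 CPM.

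Part of the ribosomal protein genes were higher on day 6. Of 73 tested cytoplasmic ribosomal protein genes, 27 were higher and 0 lower, against 10.7% called higher over all tested genes, and their median log2 fold change was 0.62. The change per gene was modest. Rpl10a had 903, 826 and 1299 CPM on day 0 and 2433, 2205 and 2331 CPM on day 6 (log2 fold change 1.15 ± 0.17 SE, adjusted p = 3.9e-09), and Rps20 had 924, 593 and 993 CPM on day 0 and 2329, 1988 and 1902 CPM on day 6 (log2 fold change 1.28 ± 0.18 SE, adjusted p = 6.3e-10). Rpl35 had 144, 148 and 339 CPM on day 0 and 504, 398 and 743 CPM on day 6 (log2 fold change 1.29 ± 0.25 SE, adjusted p = 1.5e-05). Rpl10 was not called (0.31 ± 0.21, adjusted p = 0.32). The summed level was 21594, 20243 and 29108 CPM on day 0 and 40653, 36672 and 44930.2 CPM on day 6, with replicate 3 the highest on both days. The count of higher members was 19 with RLE scaling and in DESeq2, 16 without replicate 3 13 in limma and 14 without the replicate block, with none lower in any of these. Ribosomal protein genes have many near-identical processed copies between which reads can be split, and 1 of the 27, Rps12l1, is annotated as such a pseudogene. Significance was lost for Rps12l1 (adjusted p = 0.1) without the replicate block. Among all called genes, 100 of 321 higher and 13 of 347 lower were annotated as pseudogenes in GENCODE vM21, against 481 of the 3013 tested. Leaving them out of the counts gave 221 higher and 334 lower. Their parent genes cannot be told apart from them here.

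Some of the factors that build ribosomes in the nucleolus were higher too. Of 33 tested, 9 were higher and none lower (median 0.68), and the summed level was 4454, 4425 and 5090.0 CPM on day 0 and 8205, 9652 and 9503 CPM on day 6. Npm1, nucleophosmin, had 657, 868 and 852 CPM on day 0 and 1795, 2259 and 2045 CPM on day 6 (log2 fold change 1.35 ± 0.17 SE, adjusted p = 2.9e-11). Ncl, nucleolin, had 698, 741 and 596 CPM on day 0 and 1424, 1609 and 1595 CPM on day 6 (log2 fold change 1.22 ± 0.18 SE, adjusted p = 4.6e-09). Dkc1 and Nhp2, subunits of the complex that makes pseudouridine in ribosomal RNA, had 164, 106 and 124 CPM on day 0 and 386, 452 and 402 CPM on day 6 (log2 fold change 1.66 ± 0.32 SE, adjusted p = 9.9e-06) and 61.6, 106 and 99.3 CPM on day 0 and 267, 361 and 409 CPM on day 6 (log2 fold change 1.96 ± 0.36 SE, adjusted p = 3.7e-06). Rrs1, an assembly factor of the large subunit, had 41.1, 21.2 and 16.6 CPM on day 0 and 163, 217 and 129.5 CPM on day 6 (log2 fold change 2.67 ± 0.63 SE, adjusted p = 0.00039). The call was lost for Rrs1 (adjusted p = 0.1) in limma. No day 6 library of these 5 genes was as low as any day 0 library. Translation factors moved little: 4 of 44 were higher and 1 lower, or 2 and 0 without replicate 3, and Eef1a1 was not called (0.07 ± 0.28, adjusted p = 0.9). Over the time course, the summed ribosome biogenesis level had means of 4657, 8706, 7312, 5646, 10402, 11943 and 9119.7 CPM on days 0 to 6, higher than on day 0 on each later day and lowest of those on day 3.

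**Figure D3:**
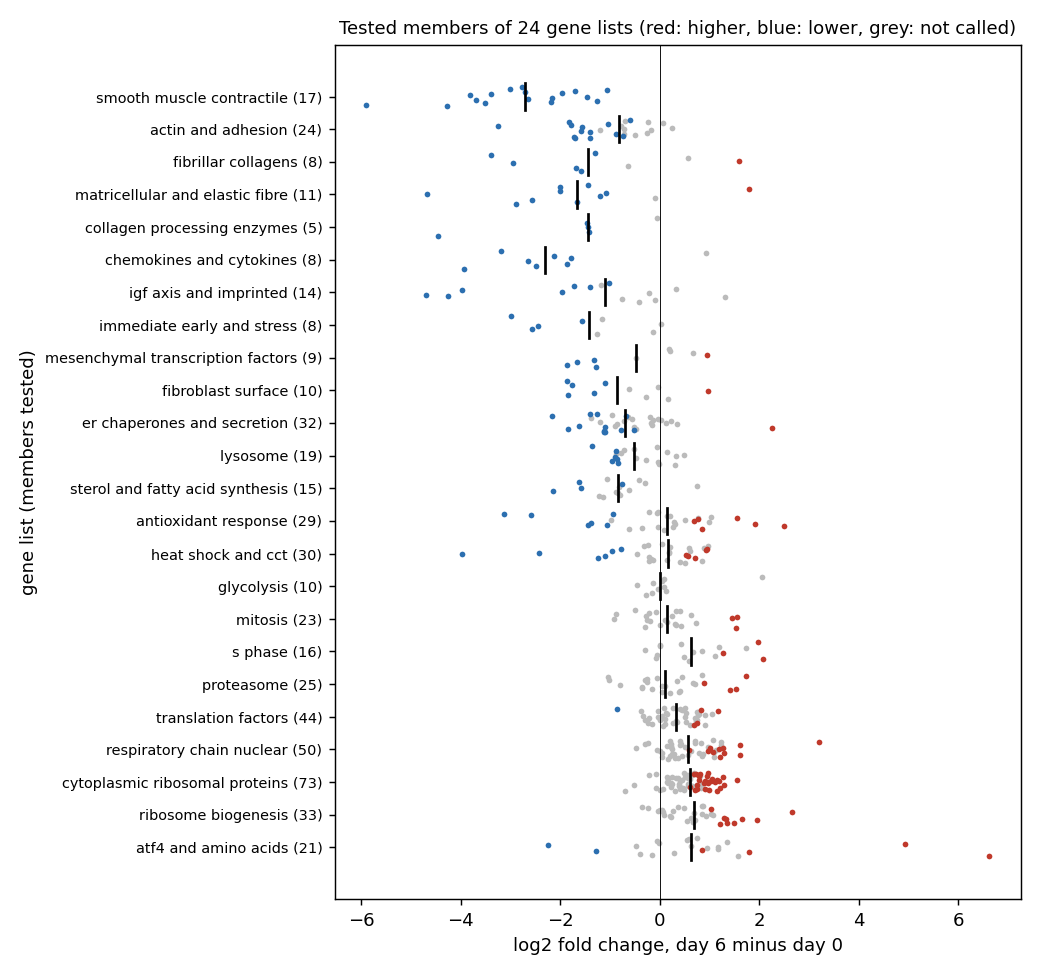
Log2 fold change of each tested member of 24 gene lists, with called members in red (higher) or blue (lower), members not called in grey, and the list median as a black bar. Every tested contractile gene is blue, and none of the tested ribosomal protein or ribosome biogenesis genes is.

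Few cell cycle genes were called, and the share of mitosis genes called higher was near that of all tested genes. Of 23 mitosis genes tested, 3 were higher and none lower (median 0.14, or -0.01 with RLE scaling), and of 16 S-phase genes 3 were higher and none lower (median 0.63), against 10.7% called higher over all tested genes. The summed S-phase level was 1909, 2202 and 2011 CPM on day 0 and 3516, 3543 and 2665 CPM on day 6, and the days did not overlap. Over days 0 to 6, the mitosis sum had means of 3842, 5302, 3554, 2145, 4343, 4194 and 4732 CPM. The S-phase sum had means of 2041, 3292, 2130, 1314, 3101, 2656 and 3241 CPM. Both sums were highest on day 1 and lowest on day 3, with no test. Mcm2, a subunit of the replicative helicase, had 41.1, 21.2 and 41.4 CPM on day 0 and 193, 163 and 143 CPM on day 6 (log2 fold change 2.07 ± 0.52 SE, adjusted p = 0.0011). Nasp, a histone chaperone, had 20.5, 21.2 and 49.7 CPM on day 0 and 119, 181 and 150.0 CPM on day 6 (log2 fold change 1.98 ± 0.53 SE, adjusted p = 0.0024). Dut, which clears dUTP, had 226, 169 and 190.4 CPM on day 0 and 534, 723 and 334 CPM on day 6 (log2 fold change 1.28 ± 0.28 SE, adjusted p = 0.0001). Birc5, survivin, had 61.6, 106 and 91 CPM on day 0 and 237, 307 and 218 CPM on day 6 (log2 fold change 1.45 ± 0.41 SE, adjusted p = 0.0041). Ube2c, a ubiquitin-conjugating enzyme of mitotic exit, had 61.6, 21.2 and 74.5 CPM on day 0 and 193, 181 and 170.4 CPM on day 6 (log2 fold change 1.55 ± 0.44 SE, adjusted p = 0.0037). Pcna and Cdkn1a were not called (0.59 ± 0.34 and 0.26 ± 0.20). Of the cyclins, Ccnd1, a Wnt target among other inputs, had 103, 148 and 82.8 CPM on day 0 and 401, 235 and 375 CPM on day 6 (log2 fold change 1.74 ± 0.34 SE, adjusted p = 1.2e-05). Ccnb1 had 41.1, 42.3 and 66.2 CPM on day 0 and 297, 90.4 and 116 CPM on day 6 (log2 fold change 1.52 ± 0.52 SE, adjusted p = 0.02). A call did not hold for Ccnb1 (adjusted p = 0.33) without replicate 1, for Ccnd1 (adjusted p = 0.054) without replicate 3, for Ccnb1 (adjusted p = 0.052) in DESeq2 and for Ccnb1 (adjusted p = 0.15) in limma. 

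Chiron activates Wnt signalling downstream of its receptors. Of 20 listed Wnt targets and components in the table, 4 were tested and 2 called higher, or 1 without replicate 3. Sfrp1, a secreted frizzled-related protein, had 123, 63.5 and 82.8 CPM on day 0 and 757, 705 and 627 CPM on day 6 (log2 fold change 2.93 ± 0.33 SE, adjusted p = 3.7e-14), and Ccnd1 was the other. Sp5, a direct Wnt target that was below the count filter, had 0, 0 and 0 counts on day 0 and 0, 3 and 5 counts on day 6, while Axin2 had no count on either day. Of 12 LIF and STAT3 targets, 2 were tested. Cebpd, a transcription factor, was called higher with an adjusted p of 0.028 (61.6, 42.3 and 57.9 CPM on day 0 and 134, 145 and 150.0 CPM on day 6, log2 fold change 1.36 ± 0.48). Significance was lost for Cebpd (adjusted p = 0.093) without replicate 2, for Cebpd (adjusted p = 0.26) without replicate 3, for Cebpd (adjusted p = 0.059) with RLE size factors and for Cebpd (adjusted p = 0.09) in DESeq2. Socs3 and Stat3 were not tested.

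Nuclear genes of the respiratory chain were higher in 11 of 50 tested members and lower in none (median 0.58), against 10.7% called higher over all tested genes. Ndufb9, a complex I subunit, had 41.1, 63.5 and 74.5 CPM on day 0 and 237, 235 and 150.0 CPM on day 6 (log2 fold change 1.60 ± 0.43 SE, adjusted p = 0.0024). Atp5l, an ATP synthase subunit, had 41.1, 21.2 and 124 CPM on day 0 and 237, 199 and 273 CPM on day 6 (log2 fold change 1.61 ± 0.39 SE, adjusted p = 0.00052). The count was 4 in limma, 5 with RLE scaling, in DESeq2 and without replicate 3, and 6 without replicate 2 and without the replicate block. Genes encoded by the mitochondrial genome went both ways, with 4 of 17 higher and 4 lower, against 10.7% and 11.5% over all tested genes. The counts were 2 and 3 without replicate 3, 2 and 2 without the replicate block, and 0 and 2 in limma. Their summed level was 160227, 149024 and 148321 CPM on day 0 and 157345, 159142 and 163517 CPM on day 6. The level of mt-Co1, a complex IV subunit, was 23236, 27039.5 and 19416 CPM on day 0 and 16291, 17008 and 11814 CPM on day 6 (log2 fold change -0.64 ± 0.13 SE, adjusted p = 2.3e-05), and that of mt-Atp6, an ATP synthase subunit, 3305, 2859 and 3203 CPM on day 0 and 4243, 3796 and 4445 CPM on day 6 (log2 fold change 0.42 ± 0.14 SE, adjusted p = 0.017). The call was lost for mt-Atp6 (adjusted p = 0.068) without replicate 2, for mt-Atp6 (adjusted p = 0.31) without replicate 3, for mt-Co1 (adjusted p = 0.083) and mt-Atp6 (adjusted p = 0.065) without the replicate block, for mt-Atp6 (adjusted p = 0.2) with RLE size factors, for mt-Atp6 (adjusted p = 0.15) in DESeq2 and for mt-Co1 (adjusted p = 0.26) and mt-Atp6 (adjusted p = 0.23) in limma. Nuclear copies of mitochondrial genes can share their reads. No glycolysis gene was called among 10 tested, with Aldoa at -0.28 ± 0.22 and Ldha at -0.15 ± 0.19, although 1 was called lower with RLE scaling and in DESeq2. Hif1a, the oxygen-regulated transcription factor, had 1252, 762 and 1167 CPM on day 0 and 267, 217 and 205 CPM on day 6 (log2 fold change -2.25 ± 0.25 SE, adjusted p = 1.8e-14) and was the only one of 5 tested low-oxygen genes called.

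The amino acid and ATF4 list held Slc7a11, the gene with the highest fitted fold change under the naming rule (log2 fold change 6.62 ± 1.01 SE). That rank depends on how the fit treats a day with no count. Slc7a11 (chr3:49892526-50443614) encodes the transporter subunit xCT that brings cystine into the cell. It had no count in any day 0 library and 148, 127 and 205 CPM on day 6, from 10, 7 and 30 counts, which with a floor of 3 counts for day 0 as a whole is at least 12.6-fold higher (adjusted p = 1.3e-08). On days 1 to 5 its mean level was 117, 135, 220.0, 79.5 and 179.7 CPM, so it was present from the first day. Cth, which makes cysteine from cystathionine, had no count on day 0 and 3, 1 and 10 counts on day 6, at least 3.75-fold higher (adjusted p = 0.0026). Gsr, glutathione reductase and a member of the antioxidant list below, had 20.5, 21.2 and 24.8 CPM on day 0 and 89, 199 and 136 CPM on day 6 (log2 fold change 2.50 ± 0.65 SE, adjusted p = 0.0015). A call did not hold for Cth (adjusted p = 0.21) without replicate 3 and for Gsr without replicate 3, where the count filter removed it. Over the whole amino acid and ATF4 list, 4 of 21 tested genes were higher and 2 lower (median 0.62), against 10.7% and 11.5% over all tested genes, and without replicate 2 they numbered 2 and 1. Nupr1, a stress-induced nuclear protein that is also an ATF4 target, had 82.1, 63.5 and 281 CPM on day 0 and 44.5, 36.1 and 27.3 CPM on day 6 (log2 fold change -2.24 ± 0.59 SE, adjusted p = 0.0017), in the opposite direction. Significance was lost for Nupr1 without replicate 3, where the count filter removed it and for Nupr1 (adjusted p = 0.16) in limma. Asns, asparagine synthetase, had a log2 fold change of 1.57 ± 0.64 and was not called (adjusted p = 0.061).

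ATF4 binds elements of the form TGATGNAA. Searched on both strands, these letters were in the promoters of 14 of 33 genes of the list with a promoter in the table, and in 4.51% of all genes with one; the list was drawn up from known ATF4 targets, so a high share is part of its definition. Of those 14 genes, 5 were tested: Slc7a11 was higher, Nupr1 lower, and Asns, Gars and Iars not called. The promoters of Slc7a11 (chr3:50443564-50443863, minus strand) and Nupr1 (chr7:126625421-126625720, minus strand) are printed because both hold the motif, in capitals, and their genes moved in opposite directions.
Slc7a11: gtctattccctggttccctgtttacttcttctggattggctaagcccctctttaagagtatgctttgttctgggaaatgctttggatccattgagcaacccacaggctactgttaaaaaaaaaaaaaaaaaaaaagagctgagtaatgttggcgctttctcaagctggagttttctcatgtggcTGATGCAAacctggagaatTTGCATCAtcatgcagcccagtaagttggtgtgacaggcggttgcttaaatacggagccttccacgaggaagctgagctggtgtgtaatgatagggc
Nupr1: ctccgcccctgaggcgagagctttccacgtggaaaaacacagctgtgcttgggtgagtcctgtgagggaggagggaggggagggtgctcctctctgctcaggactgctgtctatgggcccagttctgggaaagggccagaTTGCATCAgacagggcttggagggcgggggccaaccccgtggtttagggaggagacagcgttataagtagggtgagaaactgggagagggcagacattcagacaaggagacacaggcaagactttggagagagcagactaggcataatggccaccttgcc

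The wider antioxidant list did not move as 1 group: 6 of 29 tested genes were higher and 6 lower, and with RLE scaling 4 were higher and 6 lower. Without replicate 3 the counts were 1 higher and 3 lower, and without replicate 2 they were 2 and 3. Without the replicate block 3 were higher and 6 lower. The largest rise in the list was that of Gsr, given above. Akr1b3, an aldose reductase, fell from 2525, 1016 and 2491 to 208, 271 and 239 CPM (log2 fold change -3.13 ± 0.24 SE, adjusted p = 1.8e-26). Me1, the cytosolic malic enzyme, fell from 369, 381 and 364 to 29.7, 18.1 and 95.4 CPM (log2 fold change -2.58 ± 0.47 SE, adjusted p = 2.3e-06). Nqo1 was not called (0.08 ± 0.45, adjusted p = 0.94). Aldh3a1, an aldehyde dehydrogenase and no member of the list, had 82.1, 21.2 and 16.6 CPM on day 0 and 1484, 1066 and 579 CPM on day 6 (log2 fold change 4.74 ± 0.41 SE, adjusted p = 2.6e-22). It was higher in every day 6 library, and its day means on days 1 to 6 were 38.9, 99.4, 125.3, 399, 351 and 1043 CPM.

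Metallothioneins, small proteins that bind zinc and copper, were higher on day 6 in 2 of 3 tested members. Mt2 had 0, 106 and 49.7 CPM on day 0 and 801, 1103 and 1016 CPM on day 6 (log2 fold change 4.29 ± 0.34 SE, adjusted p = 4.1e-26), and its neighbour Mt1 had 41.1, 21.2 and 132 CPM on day 0 and 593, 596 and 511 CPM on day 6 (log2 fold change 2.71 ± 0.33 SE, adjusted p = 2.7e-12). The third tested member of the list was not called. The summed level of the 6 listed genes was 287, 169 and 306 CPM on day 0 and 1573, 1735 and 1697 CPM on day 6, and the day means were 254, 426, 533, 649, 895, 1341 and 1668 CPM from day 0 to day 6. The metal-responsive factor MTF1 binds elements with the core TGCGCNC or TGCACNC. On both strands, 3 of 6 and 4 of 6 metallothionein promoters held these letters, against 17% and 14.2% of all genes with a promoter. These are few promoters of related genes, and the shares were not tested. The promoters of Mt1 (chr8:94178839-94179138, plus strand) and Mt2 (chr8:94172368-94172667, plus strand) are shown as those of the only 2 members called, with the matches in capitals.
Mt1: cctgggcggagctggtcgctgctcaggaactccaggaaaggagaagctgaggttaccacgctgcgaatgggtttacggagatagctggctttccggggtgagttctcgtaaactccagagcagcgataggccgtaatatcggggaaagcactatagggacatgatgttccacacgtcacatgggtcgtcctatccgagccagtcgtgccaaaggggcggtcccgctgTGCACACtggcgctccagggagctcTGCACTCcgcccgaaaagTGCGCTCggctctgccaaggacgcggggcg
Mt2: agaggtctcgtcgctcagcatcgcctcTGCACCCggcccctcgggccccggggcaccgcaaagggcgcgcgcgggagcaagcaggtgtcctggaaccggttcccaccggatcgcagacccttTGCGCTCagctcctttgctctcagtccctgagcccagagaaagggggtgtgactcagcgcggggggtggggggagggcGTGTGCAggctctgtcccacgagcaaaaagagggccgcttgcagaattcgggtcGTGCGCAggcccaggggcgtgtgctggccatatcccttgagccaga

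**Figure D4:**
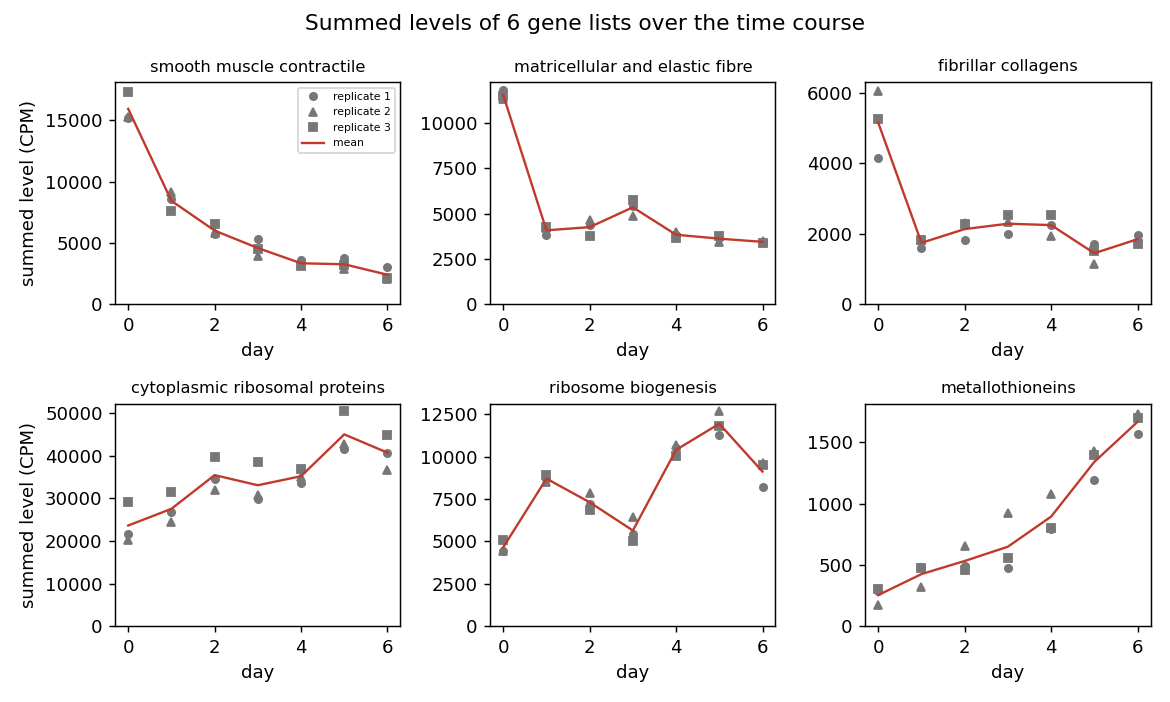
Summed levels in CPM of 6 gene lists on days 0 to 6, with the 3 replicates as points and their mean as a red line. The collagen and matricellular sums dropped by day 1, the contractile sum declined until day 6 and the metallothionein sum rose until day 6.

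Genes of the secretory pathway were lower on day 6 in part. Of 32 tested endoplasmic reticulum chaperones and transport factors, 12 were lower and 1 higher (median -0.69), and the summed level was 13445, 12853 and 13068 CPM on day 0 and 7715, 7862 and 7519 CPM on day 6. Hspa5, the chaperone BiP, had 1252, 1143 and 977 CPM on day 0 and 430.3, 578 and 504 CPM on day 6 (log2 fold change -1.12 ± 0.20 SE, adjusted p = 1.2e-06). Hsp90b1, its partner GRP94, had 1683, 1249 and 1556 CPM on day 0 and 608, 777 and 729 CPM on day 6 (log2 fold change -1.09 ± 0.19 SE, adjusted p = 7.6e-07). Pdia6, a disulfide isomerase, had 554, 551 and 521 CPM on day 0 and 178, 72.3 and 164 CPM on day 6 (log2 fold change -1.85 ± 0.30 SE, adjusted p = 8.5e-08). Sec23a, a coat protein of the vesicles that carry procollagen, had 185, 318 and 223 CPM on day 0 and 59.3, 18.1 and 61.4 CPM on day 6 (log2 fold change -2.16 ± 0.48 SE, adjusted p = 0.00013). The higher member was not called without replicate 1, 2 or 3, without the replicate block, with RLE scaling or no count filter, or in DESeq2. The number of lower members was 7 without replicate 3, 8 without replicate 2 7 in limma and 16 with RLE scaling. Lysosomal genes were lower in 6 of 19, among them Lamp1 with 595, 614 and 720.0 CPM on day 0 and 312, 379.6 and 327 CPM on day 6 (log2 fold change -0.97 ± 0.23 SE, adjusted p = 0.00056), while the cathepsins Ctsb and Ctsd were not called (0.30 ± 0.20 and -0.02 ± 0.21). Without the replicate block 3 lysosomal genes were lower, and in limma 0. Over all tested genes, 11.5% were lower in the main test. The call was lost for Lamp1 (adjusted p = 0.079) with no count filter and for Hsp90b1 (adjusted p = 0.059) and Lamp1 (adjusted p = 0.08) in limma. 

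Of 30 tested cytosolic chaperones, 5 were higher and 6 lower, against 10.7% and 11.5% over all tested genes, and in limma 0 and 2. Hspa4l, an HSP110-family chaperone, had 718, 169 and 662 CPM on day 0 and 104, 127 and 81.8 CPM on day 6 (log2 fold change -2.43 ± 0.38 SE, adjusted p = 3.1e-08). Without replicate 3 the list had 1 higher and 2 lower members, 3 and 5 without replicate 2, and 2 and 4 without the replicate block. With RLE scaling they were 2 higher and 6 lower. Of 25 proteasome genes 4 were higher (median 0.10, or -0.07 with RLE scaling), against 10.7% over all tested genes, among them Psma6, an α subunit of the core, with 246, 275 and 215 CPM on day 0 and 593, 868 and 545 CPM on day 6 (log2 fold change 1.41 ± 0.26 SE, adjusted p = 3.9e-06); 1 was higher without replicate 3 and 2 without replicate 2. Of 15 sterol and fatty acid synthesis genes, 4 were lower and none higher (median -0.84), against 11.5% lower over all tested genes. The number lower was 1 without replicate 3, 2 without replicate 1 and 7 with RLE scaling. Msmo1, a methylsterol oxidase of cholesterol synthesis, had 554, 678 and 679 CPM on day 0 and 148, 108 and 157 CPM on day 6 (log2 fold change -2.14 ± 0.29 SE, adjusted p = 1.2e-10). Of 28 tested chromatin regulator and HMG genes, 2 were higher and 1 lower (median -0.001). The lower member was Hmga2, a chromatin protein, which fell from 3243, 3218 and 2119 to 964, 1482 and 709 CPM (log2 fold change -1.48 ± 0.18 SE, adjusted p = 5.3e-12).

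Epithelial genes were at the limit of detection. Of 32 listed, 11 had a count on day 0 and 20 on day 6, and only Perp, a desmosomal membrane protein and p53 target, passed the count filter of the main test. Perp had 20.5, 0 and 24.8 CPM on day 0 and 89, 127 and 116 CPM on day 6 (log2 fold change 2.49 ± 0.64 SE, adjusted p = 0.0012). The list as a whole gave 12, 12 and 20 counts on day 0 and 22, 35 and 90 counts on day 6, with no test. Cdh1, E-cadherin, had no count on day 0 and 2, 7 and 4 counts on day 6, at least 3.49-fold higher against the floor of 3 counts. Epcam had no count on day 0 and 3 in each day 6 library, at least 2.41-fold higher. Krt8, a keratin of simple epithelia, had 1, 0 and 0 counts on day 0 and 0, 2 and 12 on day 6, a ratio of 11.3 with a 95% exact interval of 1.71 to 476 that covers counting error only, and 12 of its 14 counts came from replicate 3. Where low genes were kept, 22 members were tested with no count filter and 15 in limma, and in both 3 were higher, namely Perp, Cdh1 (adjusted p = 0.0084 in edgeR with no filter and 0.01 in limma) and Epcam (0.043 and 0.0013). Without replicate 1, Cdh1 was also tested and called higher in edgeR (adjusted p = 0.022). Esrp1, Ocln and Cldn7 had no count on either day.

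Most pluripotency genes were at or near 0. Of 30 listed, 10 had a count on day 0 and 18 on day 6, and the list gave 18, 22 and 48 counts on day 0 and 30, 38 and 77 counts on day 6. Trim28, a co-repressor found in many cell types, made up 69 of the 88 counts on day 0 and 77 of the 145 on day 6. Trim28 and L1td1, an RNA-binding protein of pluripotent cells, were the 2 tested and were not called (-0.16 ± 0.32 and 2.27 ± 1.22, adjusted p = 0.79 and 0.19). Nanog, Esrrb, Zfp42, Utf1 and Dppa4 had no count on either day, and the 10 defining markers together gave 0, 1 and 2 counts on day 0 and 6, 5 and 5 counts on day 6. Fgf4 made up 8 of the 16 counts on day 6, against 1 of 3 on day 0. None of the 10 passed the count filter. With no filter 5 of them were tested and none called, and in limma 9 were tested and Fgf4 was called higher (adjusted p = 0.016). Of the 30-gene list, limma called Fgf4 and Tet2, a DNA demethylation enzyme, higher (0.029 for Tet2), and edgeR with no filter called none. A count of 0 over the day 6 libraries allows a level of up to 11.1 CPM. The 4 reprogramming factors could not be followed either. Pou5f1 and Sox2 each had 1 count on day 6 and none on day 0, Myc had 0, 1 and 3 counts on day 6 and none on day 0, and Klf4 had 0, 0 and 5 counts on day 0 and 0, 2 and 1 on day 6. A cassette transcript ends in viral sequence, and the 3′ counts of these genes need not include it, so they are no check of the induction.

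Several of the genes with the largest changes belonged to no list above. Flrt2, a membrane protein that guides adhesion and migration, had 1806, 1143 and 1688 CPM on day 0 and 104, 36.1 and 40.9 CPM on day 6 (log2 fold change -4.75 ± 0.33 SE, adjusted p = 1.8e-31). Prss35, a serine protease-like protein, had 493, 191 and 646 CPM on day 0 and 14.8, 0 and 6.82 CPM on day 6 (log2 fold change -5.75 ± 0.75 SE, adjusted p = 4.7e-11). Atp1b1, the β subunit of the sodium pump, had 390.0, 339 and 497 CPM on day 0 and 0, 18.1 and 20.5 CPM on day 6 (log2 fold change -4.75 ± 0.69 SE, adjusted p = 3.3e-09). Among those that rose, Inhbb, the inhibin and activin subunit βB, had 20.5, 21.2 and 33.1 CPM on day 0 and 549, 307 and 293 CPM on day 6 (log2 fold change 3.63 ± 0.45 SE, adjusted p = 3.9e-12). Bex1, a small brain-expressed X-linked protein, had 0, 21.2 and 0 CPM on day 0 and 208, 235 and 136 CPM on day 6 (log2 fold change 4.84 ± 0.81 SE, adjusted p = 2.5e-07). Fgfbp1, a secreted carrier of fibroblast growth factors, had 0, 0 and 8.28 CPM on day 0 and 134, 90.4 and 68.2 CPM on day 6 (log2 fold change 3.86 ± 0.88 SE, adjusted p = 0.00025). Slc2a3, the glucose transporter GLUT3, had 0, 0 and 8.28 CPM on day 0 and 59.3, 127 and 75 CPM on day 6 (log2 fold change 3.73 ± 1.00 SE, adjusted p = 0.0023). Sned1, a matrix protein, had no count on day 0 and 6, 6 and 13 counts on day 6, at least 6.7-fold higher (adjusted p = 6.8e-05). Chl1, a neural cell adhesion protein, had none on day 0 and 9, 2 and 15 on day 6, at least 6.97-fold higher (adjusted p = 6.1e-05). Cdsn, corneodesmosin of the skin, had none on day 0 and 10, 2 and 10 on day 6, at least 5.9-fold higher (adjusted p = 0.00026). A call did not hold for Cdsn without replicate 3, where the count filter removed it. For all 10 genes the levels of the 2 days did not overlap. The naming rule, which asks for a call and the same direction in every replicate, makes this likely.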

How the data were processed

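Per the labels and the study's methods, the authors amplified RNA by CEL-Seq2 with barcodes and UMIs, pooled the libraries of each replicate number for sequencing, mapped reads with Bowtie2 to mm10 and counted UMIs over GENCODE vM13. A pair of tables was deposited by the authors, raw UMI counts per gene symbol for 129 libraries, and log2 values for 127 libraries after size-factor scaling and removal of batch effects, in which each gene is centred near 0.

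The 127 libraries of both tables entered the fit and 2 of low depth, which are absent from the log2 table, did not; 106 columns of the log2 table and 2 of the count table were not used. Genes were kept by filterByExpr, scaled by TMM and tested with edgeR 4.0.16 (glmQLFit and glmQLFTest, R 4.3.3) with a term for each condition and for the replicate number, so all libraries share the estimate of spread. A fold change whose day had no count was set against a floor of 3 counts over that day's libraries, on the TMM-scaled totals; such floors and the 95% exact intervals cover counting error only. The replicate number, which in the labels marks a sequenced pool, was a block by the rule that defines the comparison; deviations of same-numbered libraries from their day means correlated with r of 0.021 to 0.175 over genes, not above 0.1 for every pair. Replicates of a day differed beyond sampling noise (chi-square per gene 1.32 to 1.84). Gene positions and types are from GENCODE vM21 (GRCm38), in which 2965 of 3013 tested symbols were found, and promoters from RefSeq.

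The days compared, the gene lists and the rules were chosen with earlier results of these data known. The genes named were drawn from a rule: in each direction the 12 with the largest fold change among those called, at 50 CPM or more on either day and moving the same way in every replicate, leaving out predicted genes; in each list up to 4 called members; and the first 2 of each list. The text names 138 of the 258 genes this rule gives, with 103 of 171 that were called and 15 of 33 that were tested and not called, so called genes are over-represented in it. Others are said to be chosen after their values were seen or are named for having no count. Alternatives were the 6 libraries or the 21 time course libraries alone, no block, RLE scaling, no count filter, a filter on the counts of the 2 days, DESeq2 1.42.0, limma 3.58.1 on the log2 values, and leaving out each replicate. The filter on the 2 days asked for 20 counts over their 6 libraries and 10 on either day, and kept 4028 genes.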

Additional observations from a re-analysis of the deposited data

How the results depend on the processing

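The 668 calls numbered 497 with the 6 libraries alone, 691 with the 21 time course libraries, 660 with RLE scaling, 576 without a count filter, 735 with the filter on the counts of the 2 days, 583 in DESeq2 and 528 in limma. The filter on the 2 days kept 4028 genes and no filter 15615, against 3013 in the main test. Without the replicate block there were 486 calls, and the 321 higher genes became 210; DESeq2 gave 185 higher. Of the calls, 48.1% were higher, against 34.7% (229 higher, 431 lower) with RLE scaling, 31.7% (185 and 398) in DESeq2 and 59.5% (343 and 233) with no filter. Leaving out 1 replicate gave 343 to 564 calls, 144 to 261 higher and 199 to 303 lower, with the lowest values without replicate 3, which has the most counts and whose removal leaves fewer genes to test. Each of the 668 called genes that an alternative tested kept its sign in that alternative. Of 106 called genes in the text, 88 were called with each replicate left out in turn, and without the block 5 lost the call. With the 6 libraries alone 33 lost the call or were not tested. That number was 17 without replicate 3, 13 in limma and 10 with the 21 time course libraries. Over the whole naming rule, 98 of 171 called genes stayed called with each replicate left out in turn, so the genes named in the text are the more stable part of it. The cause of these losses was not tested. 12 named genes, none of them called, changed the sign of their log2 fold change, with the 6 libraries alone Ctsd (0.032) and Malat1 (0.085), with no filter Ctsd (0.20), Gars (0.20), Ldha (0.079), Malat1 (0.20), Mmp2 (0.11) and Trim28 (0.060), with the filter on the 2 days Ctsd (0.065), Gars (0.073) and Malat1 (0.073), with RLE scaling Eef1a1 (-0.092), Nqo1 (-0.079), Thy1 (-0.0046) and Timp1 (-0.031), in DESeq2 Eef1a1 (-0.096), Nqo1 (-0.083) and Timp1 (-0.025), without the block Gars (0.022) and Malat1 (0.037) and in limma Gars (0.13), Ldha (0.00062), Malat1 (0.12) and Nqo1 (-0.085). With 1 replicate left out, the values that changed sign were those of Aldoa (-0.61 to 0.050), Ctsd (-0.17 to 0.12), Gars (-0.083 to 0.30), Lima1 (-0.058 to 0.41), Malat1 (-0.091 to 0.26), Mmp2 (-1.90 to 0.79), Nqo1 (-0.044 to 0.30), Thy1 (-0.20 to 0.62) and Timp1 (-0.15 to 0.31). At these depths, the count filter of the main test removed most genes of a few counts per library. Some of those were tested in alternatives that kept more genes, such as no filter, limma and the fit without replicate 1. Of the list counts under all alternatives, 247 of 1386 moved by over 1.5 times. In limma, the numbers higher and lower were 0 and 4 for fibroblast surface genes (against 1 and 5), 0 and 3 for mesenchymal transcription factors (against 1 and 4), 1 and 0 for translation factors (against 4 and 1), 2 and 2 for antioxidant genes (against 6 and 6), 0 and 0 for splicing factors (against 2 and 1), 0 and 1 for BMP and Id genes (against 0 and 3), 4 and 1 for ATF4 and amino acid genes (against 4 and 2), 0 and 5 for collagens (against 1 and 5), 0 and 1 for basement membrane genes (against 1 and 1) and 2 and 1 for Wnt targets (against 2 and 0).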

Other observations

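Of 25 tested mitochondrial ribosomal protein genes, 2 were higher and 1 lower (median 0.10, or -0.05 with RLE scaling). Without replicate 3 and in limma none was called in either direction, and without replicate 1, with RLE scaling and in DESeq2 none was higher and 1 lower. Of 21 splicing factor genes, 2 were higher and 1 lower, with none in limma. Xist, the non-coding RNA of the inactive X chromosome, had 390.0, 381 and 389 CPM on day 0 and 786, 849 and 879 CPM on day 6 (edgeR, log2 fold change 1.11 ± 0.24 SE, adjusted p = 7.3e-05), and the levels of the 2 days did not overlap. Malat1, an abundant nuclear RNA, had 1191, 1101 and 1879 CPM on day 0 and 1528, 1392 and 1445 CPM on day 6 and was not called (-0.02 ± 0.19). Stmn2, a microtubule regulator of neurons and a marker in the neural list, had 0, 0 and 1 counts on day 0 and 4, 3 and 10 on day 6 (edgeR, log2 fold change 3.35 ± 1.00 SE, adjusted p = 0.007), while Sox10 and Foxd3 of that list had none. Significance was lost for Stmn2 (adjusted p = 0.063) without replicate 3. Krtdap and Cdsn, both genes of the differentiated epidermis, had no count on day 0 and 7 and 22 counts on day 6, while the basal keratinocyte genes Krt5, Krt15 and Trp63 had none on either day and Krt14 had 1 on day 6. Krtdap and Cdsn were set side by side after their values were seen.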
